A study of Mus musculus with 8 samples.

Results

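The immunoglobulin-class neural adhesion genes described here are Cadm1, Cadm3, Cadm4, L1cam, Chl1, Nrcam, Nfasc, Cntn2, Ncam1 and Gldn. All 10 were among the 15111 genes listed for cultured mouse dermal fibroblasts. They were taken by name, as cell surface molecules of axons and glia with immunoglobulin domains. Added to these was gliomedin (Gldn), a partner of Nfasc and Nrcam at the node. The list was chosen by function with values of these genes in the same comparison of genotypes already known, so the differences between the genotypes are given as a description of the selected genes, and neither the number of genes that differed nor their adjusted p-values are evidence about the family.

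Control fibroblasts came from Tgfb1fl/fl mice, which carry floxed Tgfb1 alleles and no Cre recombinase. TGFβ1FKO fibroblasts came from Tgfb1fl/fl:Col1a2-CreERT mice, which carry the same alleles and a Cre that tamoxifen activates and the Col1a2 promoter drives. All mice were adult and had been fed tamoxifen, and cells of both genotypes were kept for 72 h on fibronectin in serum replacement medium before RNA was extracted. Each group held 4 libraries, the labels name no strain, and they do not say whether each library is a separate mouse. The loss of Tgfb1 and the presence of the Cre transgene cannot be told apart in this design, and cells were grown from digested back skin without a sort, where the Cre acts in cells that use the Col1a2 promoter.

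The immunoglobulin superfamily of adhesion molecules holds cells together through pairs of domains that bind the same molecule or a relative on the next cell. In peripheral nerve, such pairs join the axon to the Schwann cell. CADM proteins do so along the internode, neurofascin and NrCAM of the L1 family at the node, and the contactins beside it. NCAM acts more widely on neurons, glia and muscle. The short tails inside the cell tie these molecules to scaffolds, through PDZ and band 4.1 proteins for CADM and through ankyrin for the L1 family.

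The libraries held between 16988998 and 23071528 reads on listed genes. Tgfb1, the targeted gene, averaged 1374 ± 85.4 normalised counts in control fibroblasts (SD, n = 4) and 277.4 ± 42.5 in TGFβ1FKO fibroblasts. Its log2 fold change was -2.31 ± 0.10 (SE, limma, adjusted p = 1.53e-07). All 10 fibroblast markers were listed, with a median log2 fold change of -0.03. Normalised counts are reads divided by the size factor of their library, and a gene was called when limma put its adjusted p below 0.05 and its log2 fold change beyond 0.6 in either direction. Among the adhesion genes, control replicate 4 had the lowest control value of 7 of the 10, and control replicate 3 had the highest of 6.

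To set levels of different genes side by side, counts were divided by the length of all annotated exons of a gene. The transcripts in use can be shorter, so ranks and shares per kb depend on the annotation. Per kb of exon, Ncam1 was the most abundant of the genes. Its mean was 320.7 normalised counts per kb over the 8 libraries, above 81.1% of all listed genes. Cadm4 followed with 108.8 per kb, and its highest control library reached into the range of Ncam1. Cadm3 (15.87), Gldn (14.49), L1cam (13.0), Cntn2 (11.88), Nfasc (8.81), Nrcam (6.95) and Cadm1 (4.34) lay close together on this per kb scale, and the ranges of their libraries overlapped with those of their neighbours in this order. Chl1 was the lowest at 1.72 per kb, above only 2.61% of listed genes. Only 173 reads were counted on Chl1 in all libraries together, and 358 on Cadm1, against 22542 on Ncam1.

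**Figure D1:**
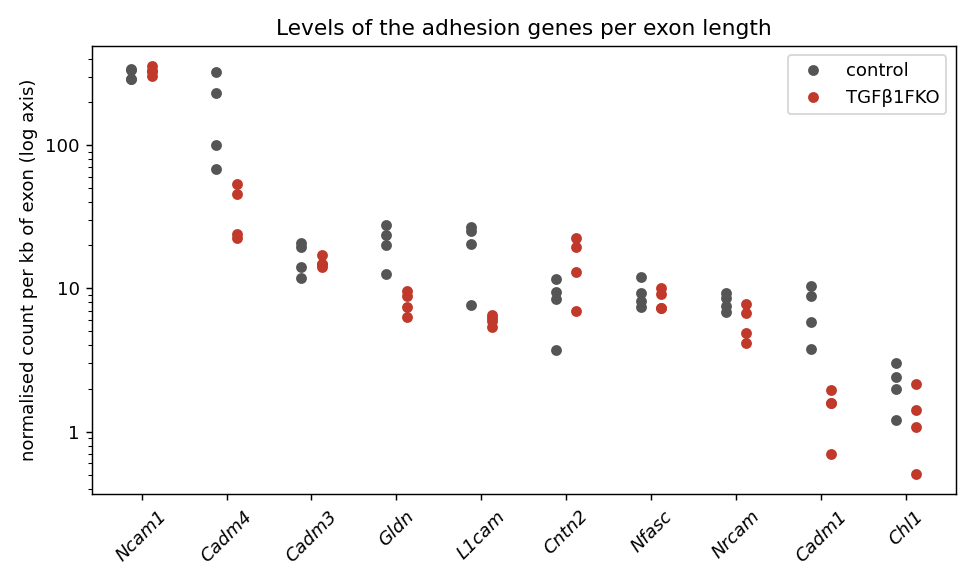
Normalised counts per kb of exon (log axis) of the 10 adhesion genes, ordered by their mean over all libraries, with 1 point per library (4 control in grey, 4 TGFβ1FKO in red). Ncam1 lies highest at a mean of 320.7 and Chl1 lowest at 1.72, and the control libraries of Cadm4 spread widely.

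Of the 10 genes, 8 had a mean log2 value below and 2 above that of control fibroblasts, while 49.1% of all listed genes lay below. In 4 genes, Cadm1, Cadm4, L1cam and Gldn, every TGFβ1FKO library lay below every control library, while 2.10% of all listed genes had groups apart in this direction. No adhesion gene had groups apart in the other direction, as 1.69% of all genes did. limma called 1 of the 10 genes, Cadm1, lower, against 0.0794% of all genes (12), and none higher, against 0.00662% (1 gene). DESeq2 on the recovered reads, tested against 0, called the 4 genes with groups apart lower, against 0.344% of all genes (52). Tested against a log2 fold change of 0.6 it called 1 of the 10, Cadm1, against 0.0926% of all genes (14), and edgeR also called Cadm1 alone. In RNA of whole cultures, fewer cells of a type and less RNA per cell cannot be told apart.

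**Figure D2:**
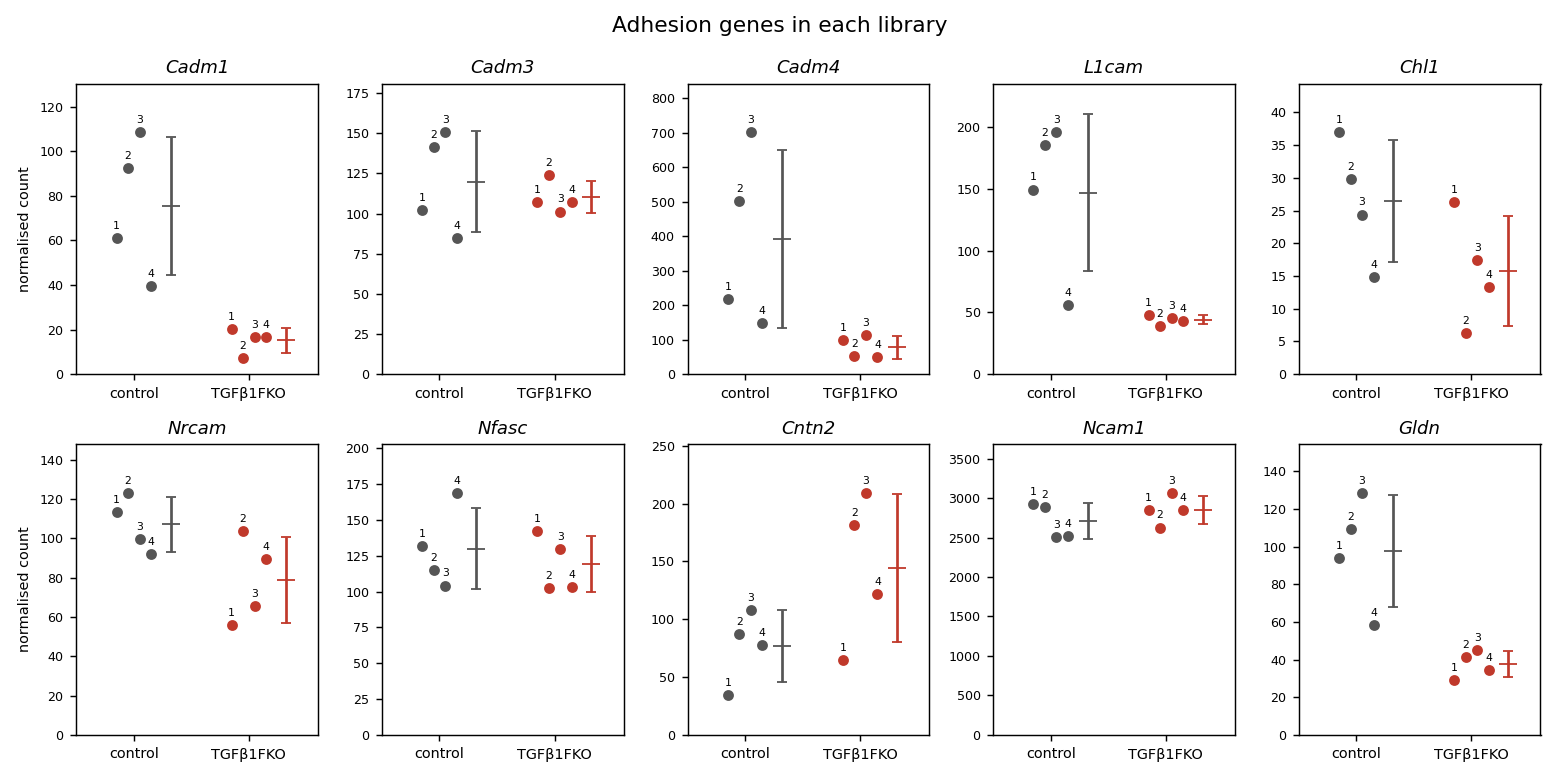
Normalised counts of the 10 adhesion genes in each library (numbers are replicates; the scale differs between panels and starts at 0), with the mean and SD of the 4 control (grey) and 4 TGFβ1FKO (red) libraries. In Cadm1, Cadm4, L1cam and Gldn the groups do not overlap, and control replicate 4 is the nearest control to the TGFβ1FKO libraries.

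The CADM genes encode molecules with 3 immunoglobulin domains, also called SynCAM or nectin-like proteins. In peripheral nerve, CADM3 of the axon binds CADM4 of the Schwann cell, and CADM1 is made by neurons, epithelia and mast cells as well as by glia. The final coding bases of each CADM gene before the stop codon are shown because they encode the end of the tail that PDZ proteins bind. Capitals mark the last 4 codons.
Cadm1: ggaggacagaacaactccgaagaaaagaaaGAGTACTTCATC
Cadm3: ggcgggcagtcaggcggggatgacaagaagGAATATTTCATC
Cadm4: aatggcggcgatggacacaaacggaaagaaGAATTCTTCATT
These stretches are exonic and were read from GENCODE M21 transcripts on GRCm38, at chr9:47850346-47850387 (plus strand), chr1:173337024-173337065 (minus strand) and chr7:24503577-24503618 (plus strand). The last 4 codons gave the same residues in Cadm1 and Cadm3, and 1 of the 4 residues was another in Cadm4. The longest annotated proteins were 474 residues for Cadm1, 430 for Cadm3 and 388 for Cadm4, and the bases shown are from their transcripts. Of 7 complete Cadm1 transcripts, 5 had a tail end of this kind, as did all of those of Cadm3 and Cadm4.

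Cadm1 (ENSMUSG00000032076, chr9:47530173-47857637, plus strand) had normalised counts of 61.1, 92.4, 108.7 and 39.5 in control replicates 1 to 4. In the TGFβ1FKO libraries it had 20.3, 7.25, 16.6 and 16.6. The highest TGFβ1FKO value was about 19.2 normalised counts below the lowest control value, that of replicate 4. The mean was 75.4 ± 31.0 in control and 15.2 ± 5.57 in TGFβ1FKO fibroblasts (SD, n = 4), or 20.1% of control, and the log2 fold change was -2.22 ± 0.36 (SE, limma, adjusted p = 0.0422). This call rested on few reads, from 7 to 98 a library. It was lost without control replicate 1, 2 or 3 or TGFβ1FKO replicate 2, 3 or 4, where the adjusted p reached 0.240, and with a minimum mean of 20 normalised counts (adjusted p = 0.0543), while DESeq2 gave an adjusted p of 3.54e-07 against 0 and 0.0036 against 0.6.

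Cadm4 (ENSMUSG00000054793, chr7:24482023-24504539, plus strand), the glial partner in the pair, had normalised counts of 217.7, 501.5, 701.9 and 147.2 in the controls. The TGFβ1FKO libraries had 98.3, 51.8, 114.6 and 48.8. The controls differed among themselves by 4.77 times, more than for any other gene of the set, and yet all lay above the TGFβ1FKO libraries. The means were 392.1 ± 257.1 and 78.4 ± 33.1, so that TGFβ1FKO fibroblasts held 20.0% of the control level. With this spread the log2 fold change of -2.14 ± 0.43 had an adjusted p of 0.125 in limma. DESeq2 gave 0.0184 against 0 and 1 against 0.6. With 1 library left out the limma adjusted p lay between 0.0143 (without control replicate 4) and 0.433 (without TGFβ1FKO replicate 4), and it passed 0.05 only without control replicate 4.

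Cadm3 (ENSMUSG00000005338, chr1:173333258-173367695, minus strand), the axonal partner, showed no such separation. Its normalised counts were 102.4, 141.3, 150.8 and 84.9 in the controls and 107.4, 124.3, 101.3 and 107.5 in the TGFβ1FKO libraries. All TGFβ1FKO values fell inside the control range, and the log2 fold change was -0.09 ± 0.18 (limma, adjusted p = 0.937). Exons of Cadm3 overlap those of Ackr1 on the same strand, so reads in the shared part could have been lost or split. Summed over these 3 genes, the normalised count was 587.3 ± 318.3 in control and 203.7 ± 29.98 in TGFβ1FKO fibroblasts. Cadm4 made up 86.3% ± 4.61 of the sum per kb in control and 66.4% ± 10.3 in TGFβ1FKO fibroblasts, and the share of Cadm3 was 9.76% ± 3.76 and 30.8% ± 10.2.

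The L1 family comprises L1cam, Chl1 (close homologue of L1), Nrcam and Nfasc, with immunoglobulin and fibronectin type III domains outside the cell. Their tails bind ankyrin when a tyrosine in a short conserved motif is not phosphorylated. The coding bases of this motif are shown because it is the link to the cytoskeleton that the family shares. Capitals mark its 5 codons.
L1cam: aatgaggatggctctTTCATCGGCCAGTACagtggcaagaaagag
Nrcam: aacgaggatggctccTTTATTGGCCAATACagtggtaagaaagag
Nfasc: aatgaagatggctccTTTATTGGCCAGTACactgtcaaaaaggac
Chl1: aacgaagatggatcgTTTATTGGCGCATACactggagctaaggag
The stretches are exonic, from GENCODE M21 on GRCm38, at chrX:73855107-73855151 (minus strand), chr12:44598471-44598515 (plus strand), chr1:132570492-132570536 (minus strand) and chr6:103729234-103729278 (plus strand). The 5 codons gave the same residues in L1cam, Nrcam and Nfasc, and Chl1 differed from L1cam in 1 residue. In the longest proteins, from whose transcripts the bases are shown, the motif began at residue 1227 of L1cam, 1224 of Nrcam, 1315 of Nfasc and 1182 of Chl1. It was in all 3 complete transcripts of L1cam, 2 of 3 of Nrcam, 4 of 5 of Nfasc and 3 of 4 of Chl1.

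L1cam (ENSMUSG00000031391, chrX:73853778-73896105, minus strand), a molecule of growing axons that non-myelinating Schwann cells also make, had normalised counts of 149.7, 185.9, 196.3 and 56.3 in the controls. The TGFβ1FKO libraries had 47.6, 39.4, 45.7 and 43.2. The TGFβ1FKO libraries lay close together, at 1.21 times between highest and lowest, whereas control replicate 4 was only 8.65 normalised counts above the highest of them. The mean was 147.1 ± 63.7 in control and 44.0 ± 3.57 in TGFβ1FKO fibroblasts, or 29.9% of control. The log2 fold change was -1.57 ± 0.32 (limma, adjusted p = 0.126). DESeq2 gave an adjusted p of 7.78e-06 against 0 and 0.146 against 0.6. The limma adjusted p was 0.000177 without control replicate 4, and without any other single library it lay between 0.164 and 0.483, the highest without control replicate 3. Exons of L1cam overlap those of Arhgap4 on the same strand.

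Chl1 (ENSMUSG00000030077, chr6:103510586-103750211, plus strand), a relative that guides axons, was the least abundant. Its normalised counts were 37.0, 29.8, 24.4 and 14.8 in control and 26.4, 6.21, 17.4 and 13.3 in TGFβ1FKO fibroblasts. The groups overlapped, with 2 TGFβ1FKO libraries above control replicate 4, and the log2 fold change of -0.79 ± 0.40 did not pass (limma, adjusted p = 0.683).

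Nrcam (ENSMUSG00000020598, chr12:44328885-44601964, plus strand), which gliomedin binds at the node, had normalised counts of 113.6, 123.2, 99.8 and 91.9 in the controls. The TGFβ1FKO libraries had 55.8, 103.6, 65.6 and 89.7. TGFβ1FKO replicate 2 lay inside the control range and the others below it, and the log2 fold change was -0.47 ± 0.19 (limma, adjusted p = 0.641). Without TGFβ1FKO replicate 2 the groups no longer overlapped, and 5 of the 10 genes were then apart, against 3.4% of all genes.

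Nfasc (ENSMUSG00000026442, chr1:132564690-132741797, minus strand) encodes neurofascin, of which axons and glia make different forms that gene counts cannot separate. Its normalised counts were 131.6, 114.8, 104.2 and 168.9 in control and 141.9, 102.5, 129.5 and 103.0 in TGFβ1FKO fibroblasts. The groups overlapped, with a log2 fold change of -0.11 ± 0.17 (limma, adjusted p = 0.910), and control replicate 4 was the highest control here. Summed over the L1 family, the normalised count was 410.5 ± 53.9 in control and 257.7 ± 10.04 in TGFβ1FKO fibroblasts. L1cam held 48.7% ± 14.8 of the family's sum per kb in control and 27.7% ± 1.37 in TGFβ1FKO fibroblasts, where Nfasc held the most (38.9% ± 4.86).

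Gldn (ENSMUSG00000046167, chr9:54286486-54341786, plus strand) has no immunoglobulin domain. Gliomedin is a ligand that Schwann cells place at the node, where it gathers neurofascin and NrCAM through an olfactomedin domain. Its annotated protein of 549 residues held a collagen-like run of 28 triplets that begin with glycine. The normalised counts were 93.8, 109.4, 128.6 and 58.3 in the controls and 29.4, 41.4, 44.8 and 34.4 in the TGFβ1FKO libraries. All TGFβ1FKO libraries lay below control replicate 4, by at least 13.4 normalised counts. The mean of 97.5 ± 29.8 in control compared with 37.5 ± 6.95 in TGFβ1FKO fibroblasts, or 38.5%, and the log2 fold change was -1.32 ± 0.24 (limma, adjusted p = 0.0717). The adjusted p of DESeq2 was 9.03e-05 against 0 and 1 against 0.6. In limma it was 0.00682 without control replicate 4 and 0.119 to 0.293 without any other single library, the highest without control replicate 3. Whether Gldn differed more than its receptors Nrcam and Nfasc was not tested.

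Cntn2 (ENSMUSG00000053024, chr1:132509427-132543256, minus strand) encodes contactin-2, a molecule held in the membrane by a lipid anchor, which axon and glia both use beside the node. It was the adhesion gene with the largest positive value. The normalised counts were 34.4, 87.1, 107.6 and 78.0 in control and 64.9, 181.2, 209.2 and 121.9 in TGFβ1FKO fibroblasts. Replicates 2, 3 and 4 of TGFβ1FKO lay above all controls and replicate 1 among them. The means were 76.8 ± 30.8 and 144.3 ± 64.3, or 188% of control, but with this spread the log2 fold change of 0.88 ± 0.37 did not pass (limma, adjusted p = 0.647).

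Ncam1 (ENSMUSG00000039542, chr9:49502136-49798925, minus strand), the neural cell adhesion molecule, was high and even. Its normalised counts were 2927, 2887, 2510 and 2518 in control and 2850, 2627, 3066 and 2844 in TGFβ1FKO fibroblasts. Both groups spanned 1.17 times between lowest and highest, and the log2 fold change was 0.07 ± 0.07 (limma, adjusted p = 0.834). Exons of Ncam1 overlap an antisense gene (Gm11149), and reads of both strands were counted together.

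**Figure D3:**
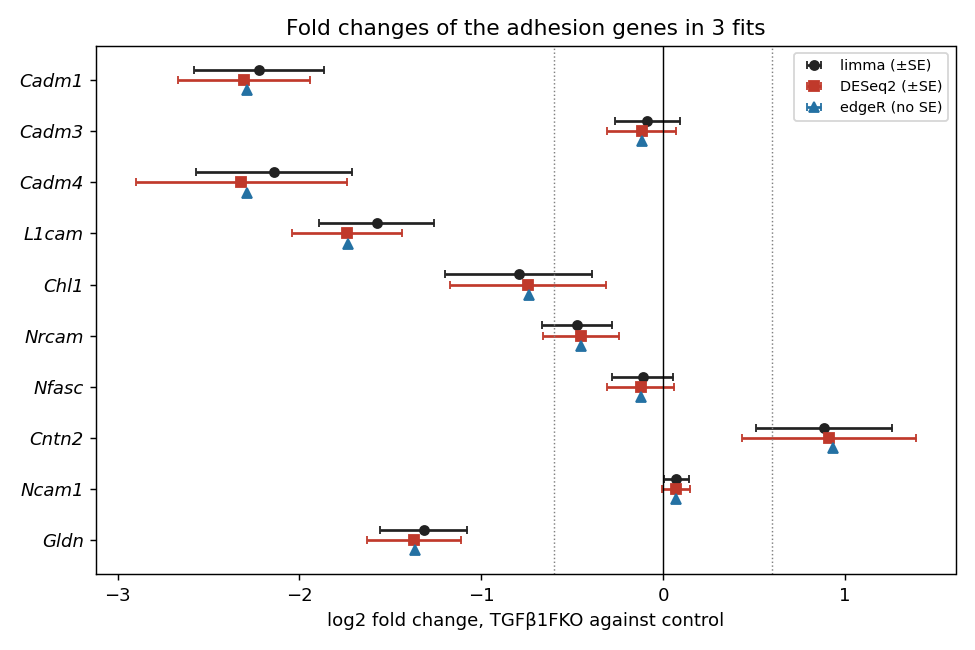
Log2 fold change of TGFβ1FKO against control fibroblasts for each adhesion gene from limma and DESeq2, with the standard error as bars, and from edgeR without an error. Dotted lines mark the threshold of 0.6 in each direction. The 3 fits gave similar values, and Cadm1 (limma -2.22) and Cadm4 (-2.14) are the lowest.

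The promoters of 3 of the 4 genes with separate groups are shown as a description of their sequence. That these genes were low in the same libraries follows from how they were picked, and a shared control was not tested. Each run is the 250 bases before the annotated start, from RefSeq on GRCm38.p6, read along the gene. Capitals mark CAGAC or its complement GTCTG, letters that Smad proteins, the nuclear carriers of TGFβ signals, bind.
Cadm4 (chr7:24481773-24482022, plus strand): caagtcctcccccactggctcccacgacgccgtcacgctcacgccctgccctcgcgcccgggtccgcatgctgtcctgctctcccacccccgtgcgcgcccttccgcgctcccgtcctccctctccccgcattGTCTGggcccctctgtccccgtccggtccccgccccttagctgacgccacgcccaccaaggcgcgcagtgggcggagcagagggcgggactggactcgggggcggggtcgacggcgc
Gldn (chr9:54286236-54286485, plus strand): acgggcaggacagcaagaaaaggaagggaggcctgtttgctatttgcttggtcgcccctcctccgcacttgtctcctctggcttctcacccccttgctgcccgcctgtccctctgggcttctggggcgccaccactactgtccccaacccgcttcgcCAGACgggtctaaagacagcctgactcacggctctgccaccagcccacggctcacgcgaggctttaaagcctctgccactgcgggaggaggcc
L1cam (chrX:73880791-73881040, minus strand): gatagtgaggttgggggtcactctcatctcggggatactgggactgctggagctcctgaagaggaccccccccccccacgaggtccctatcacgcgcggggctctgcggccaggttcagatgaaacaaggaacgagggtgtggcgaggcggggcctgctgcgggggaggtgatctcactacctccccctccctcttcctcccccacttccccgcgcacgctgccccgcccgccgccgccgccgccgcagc
CAGAC was found on either strand in 3 of 10 promoters, which belong to 8 of the adhesion genes (Cadm4, Gldn and 1 of Nfasc), and in 42.2% of 32851 RefSeq promoters of the same length. ACAAAG, the letters that Sox proteins bind, was found in 1 of the 10, that of Chl1, and in 16.5% of all. The letters do not overlap each other, and a match is a description of the sequence and not a site.

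Among 59 other adhesion molecules with immunoglobulin domains, 38 were listed, of which 19 had a value below and 19 above control. Their median log2 fold change was 0.00, beside 0.00 for all genes and -0.63 for the 10 adhesion genes. limma called none of the 38, and 5 had an unadjusted p under 0.05, against 1127 of all 15111 genes. DESeq2 against 0 called 1, Ntm (neurotrimin, a lipid-anchored molecule of neurons), and edgeR none. Ntm had 24.5 ± 15.9 normalised counts in control and 3.90 ± 1.95 in TGFβ1FKO fibroblasts, with groups apart (limma, log2 fold change -2.29 ± 0.51, adjusted p = 0.190). Kirrel3 was at 28.0 ± 9.05 and 12.6 ± 2.85, also with groups apart (-1.07 ± 0.29, adjusted p = 0.427). The most abundant of the list per kb, Thy1, Bsg, Nptn, Kirrel and Clmp, had log2 fold changes between -0.05 and 0.10. Groups were apart for 3 lower and 2 higher genes of the 38, against 2.10% and 1.69% of all genes.

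The molecules that the adhesion genes bind inside the cell and on the axon were listed for 28 of 38 genes. Of these, 10 had a value below and 18 above control, and limma, DESeq2 and edgeR called none. An unadjusted limma p under 0.05 was found for 4 of the 28, against 1127 of all 15111 genes. Among the most abundant per kb were Msn (moesin), Sptan1 and Sptbn1 (spectrins) and Sdcbp (syntenin, a PDZ protein), whose log2 fold changes lay between 0.00 and 0.21. Of the extracellular partners and enzymes, 30 of 34 were listed. There 11 had a value below and 19 above control, and none was called by limma, DESeq2 or edgeR. In limma, 7 of the 30 had an unadjusted p under 0.05, against the same 1127 of all 15111 genes. The most abundant, Itgb1, Prnp, Tnc, Plxna1 and Fgfr1, had values between -0.11 and 0.23.

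**Figure D4:**
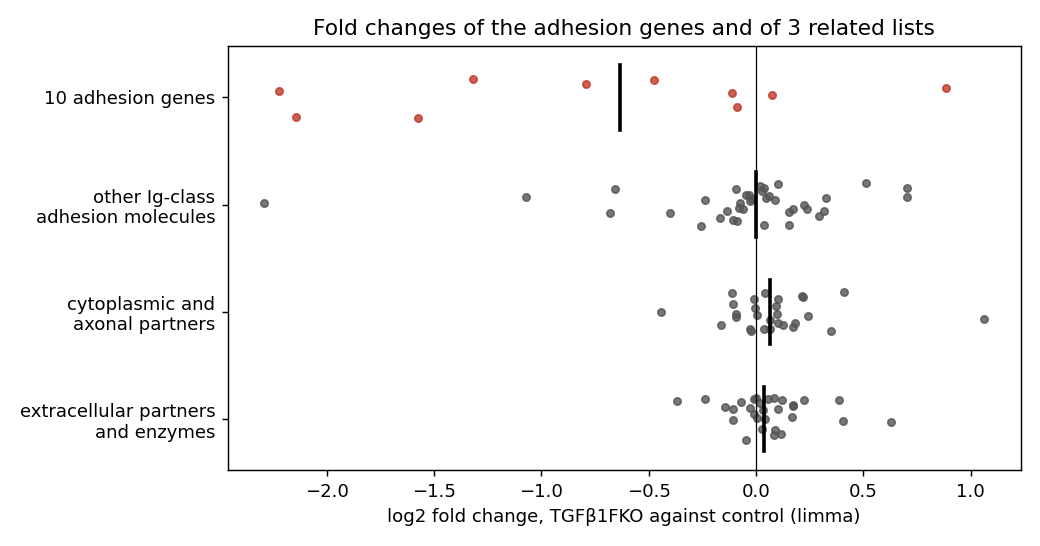
Log2 fold change (limma) of TGFβ1FKO against control fibroblasts for the 10 adhesion genes and 3 lists of related genes, with 1 point per listed gene and a black line at each median. The median of the adhesion genes, which were selected with values of this comparison known, is -0.63, and the other medians lie between 0.00 and 0.07.

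Some markers of Schwann cells and other glia were low in the same libraries as the 4 separate genes. Of 25 such markers, 20 were listed. Of these, 18 had a value below control, against 49.1% of all genes, and limma called 2 lower, against 0.0794%. Their median log2 fold change was -1.28. Sox10, the transcription factor of the glial lineage, was at 139.9 ± 55.6 normalised counts in control and 16.5 ± 6.25 in TGFβ1FKO fibroblasts and was called (-3.01 ± 0.35, limma, adjusted p = 0.00499). Foxd3, a factor of neural crest and early glia, was at 67.2 ± 36.5 and 6.22 ± 2.95 and was called too (-3.20 ± 0.40, adjusted p = 0.00757). Groups were apart, TGFβ1FKO lower, for 9 of the 20, against 2.10% of all genes. Pmp22 (0.06), Prx (0.15), Fabp7 (-0.03), Egr2 (-0.07) and Drp2 (-0.15) had log2 fold changes near 0 and overlapping groups.

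Among the controls, replicate 4 was also the lowest for these markers, with a median of -0.43 against the control mean on the log2 scale, and replicate 3 the highest with 0.50. The TGFβ1FKO libraries lay between -1.59 and -1.07. The summed normalised count of the 20 markers overlapped, at 9701 to 11010 in control and 8115 to 10560 in TGFβ1FKO libraries. Most of it came from Pmp22, which fibroblasts also make, and without this gene the sums were 2704 to 3771 and 1711 to 2753. Pou3f1, Ncmap, Dhh and Gfap were not in the table. The part of glial cells in the values of the adhesion genes was not tested.

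**Figure D5:**
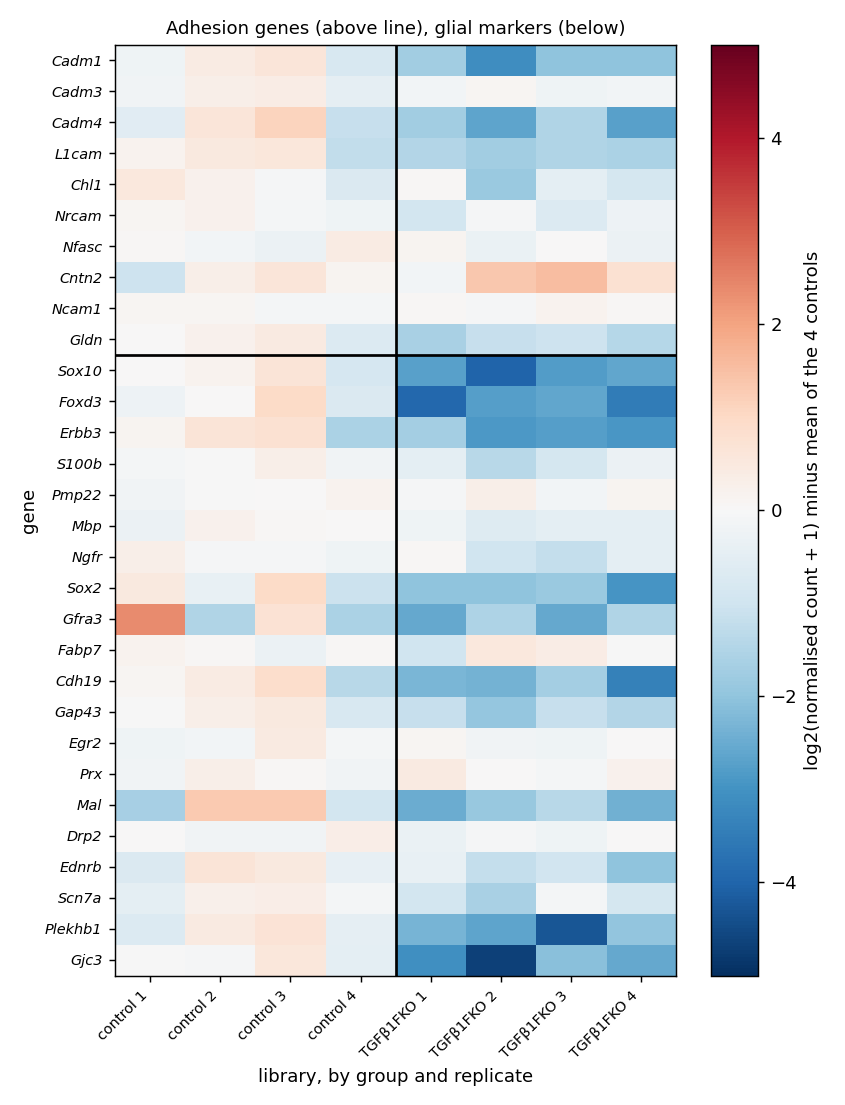
Each library's log2(normalised count + 1) minus the mean of the 4 controls, for the 10 adhesion genes above the black line and 20 glial markers below it (blue is lower, red is higher). Cadm1, Cadm4, L1cam and Gldn are blue in all TGFβ1FKO libraries, as are Sox10 and Foxd3, and control replicate 4 is the lowest control in these rows.

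Markers of other cell types were read in the same way. Of 12 neuron markers 3 were listed. Their median log2 fold change was -0.17, with summed counts of 504.7 to 1142 in control and 582 to 995.6 in TGFβ1FKO libraries, and Rbfox3, Snap25, Syt1 and the neurofilament genes were not in the table. All 11 endothelial markers were listed, 10 with a value below control, none called and none with groups apart, with a median of -0.45. Their sums were 5157 to 5511 and 4704 to 5691, mostly from Eng, and without it 677.5 to 1107 in control and 685.2 to 726 in TGFβ1FKO libraries. Control replicate 3 was the highest and replicate 4 the lowest control for the median of the endothelial markers (0.90 and -0.32 against the mean of all libraries on the log2 scale) and of the neuron markers (0.42 and -0.67), as for the glial markers. The medians were -0.08 for 3 of 8 melanocyte, 0.28 for 4 of 8 keratinocyte and -0.31 for 3 of 6 macrophage markers. The summed counts were 215.1 to 332.8 and 219.2 to 308.6 for melanocytes, 112.7 to 152.1 and 147.8 to 172.9 for keratinocytes, and 456.9 to 550.1 and 296.4 to 513.7 for macrophages. No marker of these types was called, and their part in the values of the adhesion genes was not tested.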

How the data were processed

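RNA of cultured dermal fibroblasts was measured in 4 control and 4 TGFβ1FKO libraries, grouped by the genotype in their labels. According to the submitters' processing notes, reads were handled with CASAVA 1.8, HISAT2 2.0.5, featureCounts 1.5.0-p3, R 4.3.2 and DESeq2 1.42.0 on GRCm38 (mm10). Values were deposited as a signal without negative entries, namely reads divided by a library's size factor, with 0.5 added, for genes past a filter on low counts (the lowest sum of reads was 41). Fold changes and p-values of the authors' own comparison were in the same table and were not used. Libraries were not directional, so reads of both strands were counted together.

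The 0.5 was subtracted and 1 added as a pseudocount, and log2 values of all 15111 genes were compared with limma 3.58.1 (R 4.3.3, mean-variance trend, Benjamini-Hochberg adjustment). Whole reads were recovered from the steps of the values (100% whole within 0.05 reads) and tested with edgeR 4.0.16 (18 genes called lower and 2 higher) and with DESeq2 1.42.0 against 0 (52 lower and 4 higher). Depth is the sum of these reads. Of the fits, only the main limma fit, edgeR and DESeq2 against 0 were tested on simulated data. No libraries of a group agreed within sampling noise. P-values measure the spread between these libraries, which may be technical.

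The adhesion genes, related lists and markers were chosen with earlier results of these data known. Named besides are Tgfb1, of each related list the called genes, the 5 most abundant per kb and those over 0.6 with groups apart, and called or absent markers; Ntm and Kirrel3 enter by the third part. Some genes that this rule covers are not reported here by name. Alternatives were other tests, scaling, pseudocounts, a filter on the mean, the threshold, the replicate block and each library left out. Leaving out libraries for the count of genes with groups apart was added after the data had been seen. Exon lengths and overlaps are from GENCODE M21, which held 15098 of the genes.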

Additional observations from a re-analysis of the deposited data

Results flagged for a closer look

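Each group of 4 libraries was searched for a highest or lowest library far from the other 3, over the adhesion genes, Tgfb1 and the other named genes, 60 groups in all, of which chance would flag about 3. A single group stood out, and it was not one of the adhesion genes. Nptn (neuroplastin) had 5840 normalised counts in control replicate 3, while the other 3 controls lay between 6091 and 6119. None of the 20 groups of the adhesion genes was flagged, also not L1cam in control replicate 4.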

How the results depend on the processing

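Low depth limits Cadm1 and Chl1, since a count of 3 is taken as the floor and some libraries held 7 and 6 reads. Each adhesion gene kept its direction under all 17 alternatives, except Cadm3 (2 alternatives with the other sign, up to 0.04) and Nfasc (1, up to 0.02), neither of them called. The replicate block, the filter on the mean and the threshold of 0.1 return the main fold change, so no sign could differ there. Tgfb1 passed under all 17, and with the looser threshold it could not fail. The count of adhesion genes called lower was 1, and 4 with DESeq2 against 0, 0 with a mean of at least 20, 2 with an adjusted p under 0.1, and between 0 and 4 with 1 library left out. It was 4 without control replicate 4 and 1 without TGFβ1FKO replicate 1 and 0 without any other single library. For all genes, the 12 called lower became 52 with DESeq2 against 0, 6 with a mean of at least 20, 22 with an adjusted p under 0.1, and 4 to 29 with 1 library left out. The 1 called higher became 2 with edgeR, 4 with DESeq2 against 0, 3 with an adjusted p under 0.1, and 1 to 3 with 1 library left out. DESeq2 against 0 called 1 of the other adhesion molecules lower, in place of 0. With a replicate block, 4 adhesion genes were called lower and 1 higher (Cntn2, limma, adjusted p = 0.0407), and 28 of all genes lower and 3 higher. The labels tie replicate numbers to nothing. Deviations of same-numbered libraries correlated at 0.156, -0.134, 0.0523 and 0.159, and those of other pairs at -0.319 to 0.387. Not every library correlated best with its own number. Whether same-numbered libraries share more than a number cannot be told from these values. Groups that are apart stay so with any 1 library left out, so this was no test of the 4 genes. Those of Nrcam came apart without TGFβ1FKO replicate 2. Over all genes, the share with groups apart, TGFβ1FKO lower, was 2.10% and became 3.04% to 4.33% with 1 library left out. Apart from the numbers of libraries and genes that an alternative removes, the cause was not tested.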
